A study of Ovis aries with 16 samples.

Results

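oar-piR-12439, oar-piR-9006, oar-piR-658 and oar-piR-7113 are 4 of the 4996 putative piRNAs listed for sheep testis. They were chosen by their identifiers because their levels were lower in underfed than in well-fed males in these same libraries. The diet difference of each member is therefore given as a description, without a test. The libraries came from the right testis of 16 sexually mature Merino males, 24 months of age on entry, with 1 small RNA library per male. For 65 days, 8 well-fed males were fed to gain 10% of body mass and 8 underfed males were offered less oaten chaff and lupin grain to lose 10%. All males shared the same housing and acclimatization feed, and no male was kept at constant body mass, so the comparison is between gain and loss.

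piRNAs are small RNAs of the germ line that load onto PIWI proteins. In the testis they guide the silencing of transposons, and many that accumulate during meiosis come from intergenic clusters or from the transcripts of genes. The piRNAs described here were predicted from sequence by the authors and are named by number only, and binding to a PIWI protein was not measured. For oar-piR-9006 the study's annotation names a pair of genes, the 5′UTR of ATP2B4, which encodes a calcium pump of the plasma membrane, and an intron of DCAF6, which encodes an adaptor of a ubiquitin ligase. ATP2B4 and DCAF6 lie on different chromosomes in the RefSeq annotation of the ARS-UI_Ramb_v3.0 assembly, which is not the build of the files, Oar_v3.1. No gene was named in the sources used here for oar-piR-12439, oar-piR-658 or oar-piR-7113.

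Levels are given as CPM, the reads of a piRNA per 1000000 piRNA reads of its library. All 4996 listed piRNAs had CPM above 5 in at least 8 libraries. The study predicted more piRNAs than these, so ranks and shares below describe the listed ones only. A read is taken as one whole piRNA, so levels of different piRNAs are compared without a correction for length. piRNA depth was 25552 to 721305 reads in well-fed and 18110 to 625230 reads in underfed libraries. Depth was below 100000 piRNA reads in 3 libraries, well-fed replicate 5 and underfed replicates 6 and 8, where 1 read was worth 39.1, 55.2 and 29.95 CPM. In the other 13 libraries 1 read was worth 1.39 to 4.08 CPM. The share of the 4996 piRNAs at 0 reads was 0.400% to 4.64% in those 13 libraries, and 40.7%, 51.1% and 34.5% in the 3 shallow libraries, in the order given. Intervals below are exact Poisson 95% intervals of the reads of 1 library, or of pooled libraries where stated. The limit that 0 reads allows is set at 3 reads, which is lower than the two-sided interval drawn for 0 reads in the plot of levels. Intervals and limit cover counting error only and not the spread between males. Reads amplified by PCR are also not independent molecules.

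In well-fed males the 4 piRNAs had reads in all 8 libraries. In underfed males oar-piR-12439 had reads in 7 of 8 libraries, oar-piR-9006 in 6, oar-piR-658 in 4 and oar-piR-7113 in 3. Reads in all 8 well-fed libraries together with 0 reads in at least 1 underfed library were found for 23.2% of all piRNAs (1158 of 4996), and for 4 of 4 members. Since the members were selected on this contrast, nothing is read from that count. None of the 4 had every well-fed CPM above every underfed CPM, a separation seen for 0.120% of all piRNAs (6 of 4996).

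**Figure D1:**
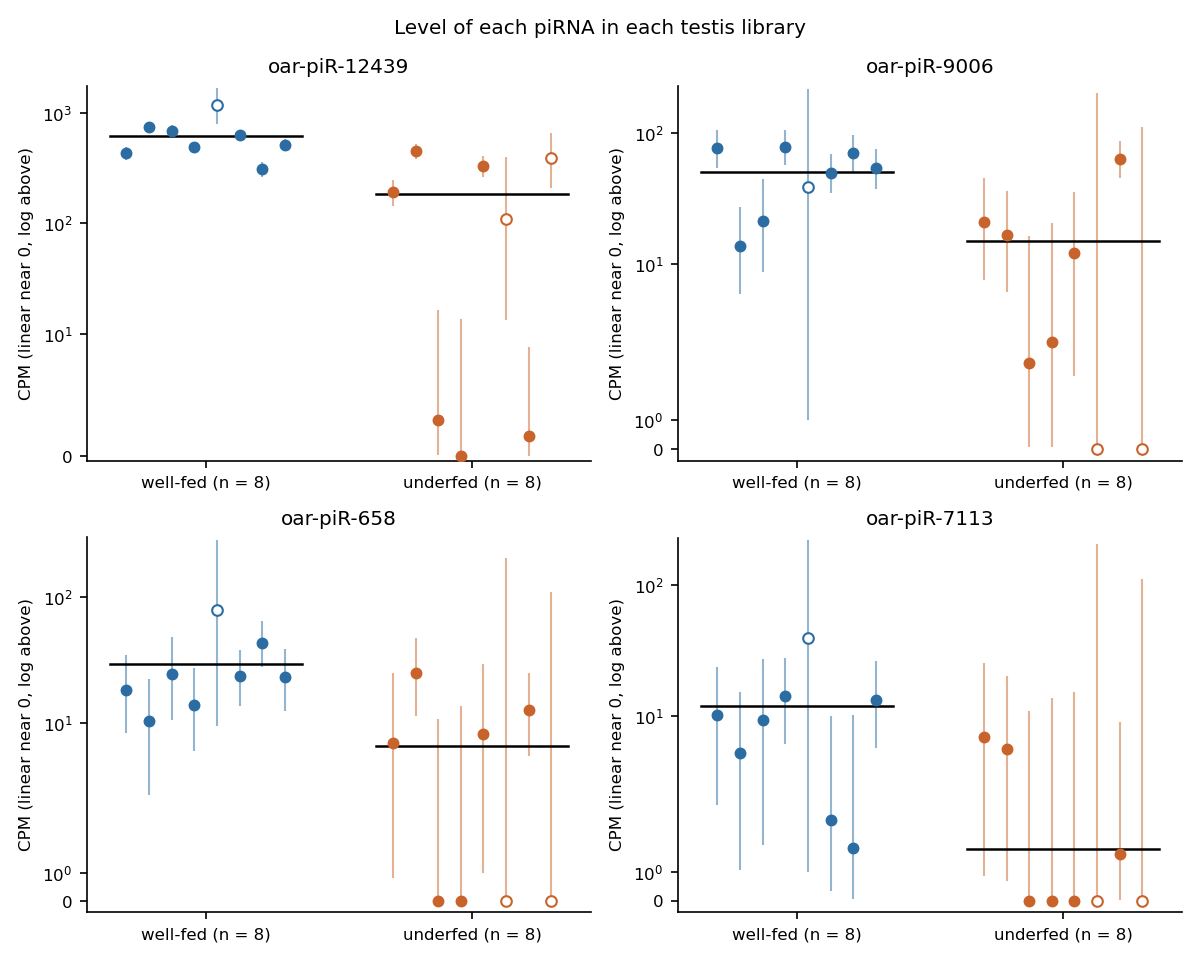
Level of each piRNA in each library in CPM (y axis linear near 0 and log above), with libraries in replicate order from left to right within a diet. Points are libraries, open points have fewer than 100000 piRNA reads, vertical lines are exact Poisson 95% intervals and horizontal lines are means (n = 8 per diet). oar-piR-12439 sits at 310 to 1174 CPM in well-fed libraries, and 3 underfed libraries lie between 0 and 2.95 CPM.

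oar-piR-12439 was the most abundant of the 4, at rank 290 of 4996 by mean CPM in well-fed males and rank 825 in underfed males. Well-fed replicates 1 to 8 held 434, 740, 686, 491, 1174, 635, 310 and 516 CPM. Underfed replicates 1 to 8 held 191, 449, 2.95, 0, 331, 110, 1.60 and 389 CPM. On the log2 scale of CPM + 1 the underfed libraries fell into separate clusters. Replicates 3, 4 and 7 were at or near 0 and the other 5 at 110 CPM or more. The ranges of the diets overlapped, because underfed replicates 2, 5 and 8 exceeded the lowest well-fed library. Well-fed libraries averaged 623 ± 263 CPM and underfed libraries 184 ± 185 CPM (SD, n = 8 each), a ratio of means (FC, underfed over well-fed) of 0.296.

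The depth of the libraries in which oar-piR-12439 was nearly absent was sufficient to detect its well-fed level. Pooled over the well-fed libraries, it made up 547 CPM (2121 reads). The Poisson interval of this rate, 523 to 570 CPM, leaves out the spread between males. At that rate underfed replicates 3, 4 and 7 would hold 185, 149 and 342 reads, and they held 1, 0 and 1. The intervals of replicates 3 and 7 reached up to 16.4 and 8.91 CPM, and 0 reads in replicate 4 allow up to 11.04 CPM, beside 310 CPM in the lowest well-fed library. Underfed replicates 1, 2 and 5 held 55, 161 and 81 reads, beside 158, 196 and 134 at the pooled well-fed rate. The shallow underfed replicates 6 and 8 held 2 and 13 reads beside 9.90 and 18.2, with intervals of 13.4 to 399 CPM and 207 to 666 CPM.

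piRNAs as abundant as oar-piR-12439 are given beside it as a description, since it was chosen for its underfed values. Of the 320 piRNAs with a pooled well-fed level at or above 547 CPM, oar-piR-12439 included, 2 had 0 reads in at least 1 of the 6 underfed libraries above 100000 piRNA reads. The other was oar-piR-10959, named here after its values were seen. It was at 0 in underfed replicate 2 and at 750 to 1419 CPM in the other 7 underfed libraries, and it was also at 0 in well-fed replicate 2 and at 36.05 and 41.1 CPM in well-fed replicates 6 and 8. Its low libraries were found in both diets, and those of oar-piR-12439 in underfed males.

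**Figure D2:**
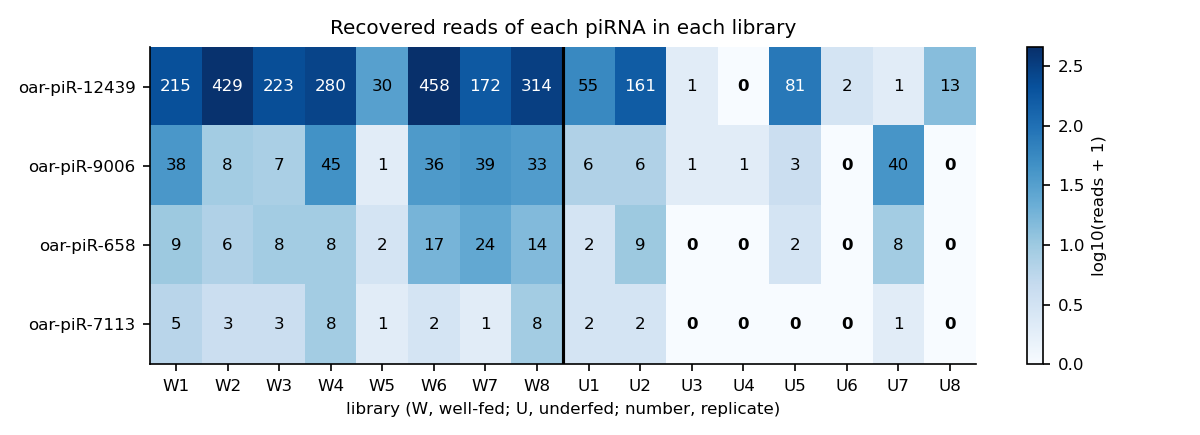
Recovered reads of each piRNA (rows) in each library (columns), printed in the cells and shaded by log10(reads + 1), with bold zeros. Well-fed libraries W1 to W8 stand left of the line and hold no zero, while underfed libraries U1 to U8 hold 12 zeros, none of them in U1, U2 or U7.

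oar-piR-9006 was of middling level, at rank 2024 of 4996 in well-fed males and rank 3664 in underfed males. Well-fed replicates 1 to 8 held 76.7, 13.8, 21.5, 78.9, 39.1, 49.9, 70.3 and 54.3 CPM. Underfed replicates 1 to 8 held 20.8, 16.7, 2.95, 3.68, 12.3, 0, 64.0 and 0 CPM. Underfed replicate 7 stood within the well-fed range, and well-fed replicates 2 and 3 lay among the higher underfed libraries. The FC was 0.298, from 50.6 ± 24.5 CPM with the gain in body mass to 15.0 ± 21.3 CPM with the loss (SD, n = 8 each).

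A single library carried most of the underfed reads of oar-piR-9006. Underfed replicate 7 held 40 of the 57 underfed reads, or 70.2%, beside 33.3 reads at the pooled well-fed rate of 53.3 CPM. Without underfed replicate 7 the FC was 0.159, and the ratio of pooled reads over all 16 libraries was 0.490. In the 13 deeper libraries the FC was 0.384. Among the other deep underfed libraries, replicates 3 and 4 held 1 read each beside 18.1 and 14.5 at the pooled well-fed rate, and replicates 1, 2 and 5 held 6, 6 and 3 reads beside 15.4, 19.2 and 13.1. The zeros in underfed replicates 6 and 8 were uninformative, since 0.966 and 1.78 reads would be held there at the well-fed rate. The absence of reads in these shallow libraries is below the limit of detection, 166 and 89.9 CPM.

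oar-piR-658 was at rank 2717 of 4996 in well-fed and rank 4680 in underfed males. Well-fed replicates 1 to 8 held 18.2, 10.3, 24.6, 14.0, 78.3, 23.6, 43.2 and 23.0 CPM. Underfed replicates 1 to 8 held 6.94, 25.1, 0, 0, 8.17, 0, 12.8 and 0 CPM. The underfed libraries divided into 4 without reads and 4 with reads, and replicate 2 alone among the underfed exceeded the well-fed median of 23.3 CPM. The well-fed value of 78.3 CPM in replicate 5 rested on 2 reads. Over the well-fed libraries the mean was 29.4 ± 22.1 CPM, against 6.62 ± 8.92 CPM over the underfed libraries (SD, n = 8 each), an FC of 0.225. In the 13 deeper libraries the FC was 0.394, and by pooled reads (88 well-fed and 21 underfed) it was 0.425. Without underfed replicate 2 it was 0.136.

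The 4 underfed zeros of oar-piR-658 differ in what they can show. At the pooled well-fed rate of 22.7 CPM, underfed replicates 3 and 4 would hold 7.68 and 6.16 reads, and their 0 reads allow up to 8.85 and 11.04 CPM. Both limits lie below the pooled well-fed level, but that of replicate 4 lies above the lowest well-fed library, 10.3 CPM. The two-sided intervals for 0 reads reach 10.9 and 13.6 CPM, above that library in both cases. Replicates 6 and 8 would hold 0.411 and 0.757 reads, so an absence was not detectable there. Reads were present in underfed replicates 1, 2, 5 and 7, with 2, 9, 2 and 8 reads beside 6.54, 8.14, 5.55 and 14.2.

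oar-piR-7113 was the least abundant of the 4, at rank 3960 of 4996 in well-fed males, and had the lowest mean CPM of all 4996 piRNAs in underfed males. Well-fed replicates 1 to 8 held 10.1, 5.17, 9.22, 14.0, 39.1, 2.77, 1.802 and 13.2 CPM. Underfed replicates 1, 2 and 7 held 6.94, 5.57 and 1.60 CPM, and the other 5 underfed libraries held none. Both diets had libraries below 2 CPM, and the highest well-fed value, in replicate 5, was 1 read. The means were 11.9 ± 11.9 CPM and 1.76 ± 2.85 CPM (SD, n = 8 each) in well-fed and underfed males, with an FC of 0.148. In the 13 deeper libraries the FC was 0.293, by pooled reads it was 0.287, and without underfed replicate 1 it was 0.0859.

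Few reads stood behind oar-piR-7113, with 31 over the 8 well-fed and 5 over the 8 underfed libraries. The pooled level was 7.99 CPM with an interval of 5.43 to 11.3 CPM in well-fed males, and 2.29 CPM with an interval of 0.745 to 5.35 CPM in underfed males. These pooled intervals leave out the spread between males, so they do not compare the diets. No underfed library held 3 or more reads. Underfed replicates 3, 4 and 5 would hold 2.71, 2.17 and 1.96 reads at the pooled well-fed rate. Their zeros lie within the limit that a count of 0 allows, so absence was not detectable there. Underfed replicate 7 would hold 4.99 reads and held 1, with an interval up to 8.91 CPM. oar-piR-7113 was above 5 CPM in 6 well-fed and 2 underfed libraries, which is the minimum of 8 libraries for a piRNA to be tested. The other members were above 5 CPM in all 8 well-fed libraries and in 4 or 5 underfed libraries, and all 4996 piRNAs met the minimum.

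**Figure D3:**
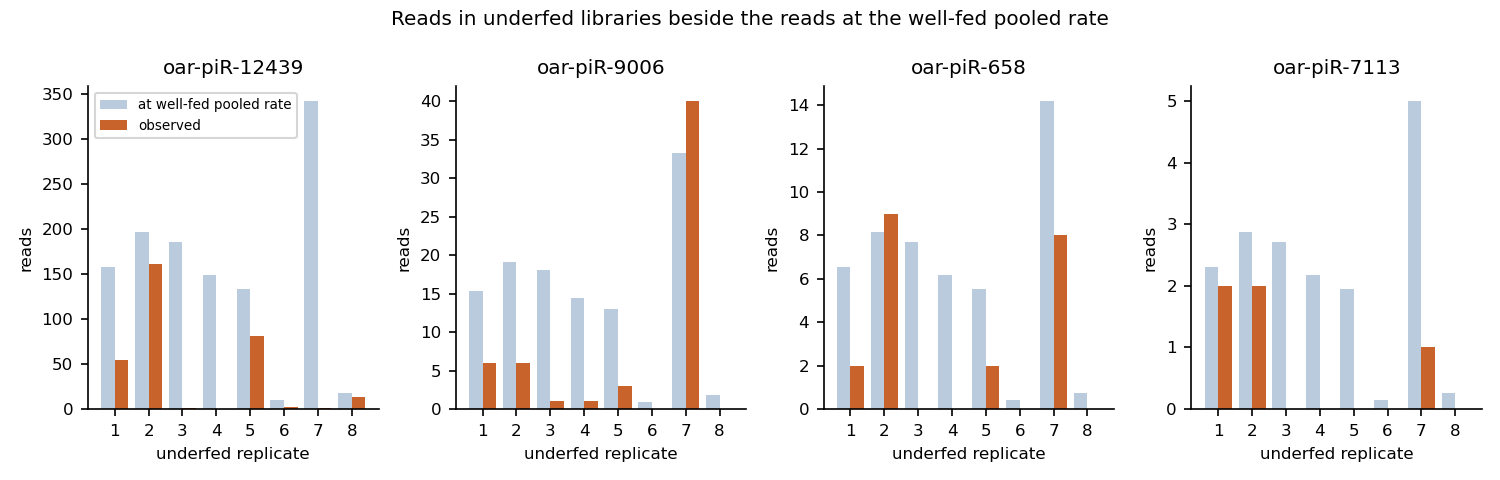
Reads of each piRNA in each underfed library (orange bars) beside the reads the library would hold at the pooled well-fed rate (pale bars), with the read scale set per panel. For oar-piR-12439 replicates 3, 4 and 7 held 1, 0 and 1 reads beside 185, 149 and 342, whereas oar-piR-9006 held 40 reads in replicate 7 beside 33.3.

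The order of the members by mean level was the same in both diets, with oar-piR-12439 above oar-piR-9006, oar-piR-658 and oar-piR-7113. In well-fed males the lowest library of oar-piR-12439 exceeded the highest library of each other member. The ranges of oar-piR-9006 and oar-piR-658 overlapped, as did those of oar-piR-658 and oar-piR-7113. Within libraries, oar-piR-9006 had more reads than oar-piR-658 in 6 of 8 well-fed libraries and fewer in 2. Those 2 were replicate 3, with 7 against 8 reads, and replicate 5, with 1 against 2, counts too close to show an order. oar-piR-658 had more reads than oar-piR-7113 in 7 well-fed libraries and as many in 1. In underfed males the ranges of all 4 overlapped, since each had a library at 0. There oar-piR-12439 exceeded oar-piR-9006 in 5 of 8 libraries and was below it in 2, oar-piR-9006 exceeded oar-piR-658 in 5 and was below it in 1, and oar-piR-658 exceeded oar-piR-7113 in 3 and equalled it in 5.

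The members were not absent from the same libraries. Underfed replicates 3 and 4 held 0 or 1 read of each member, which for oar-piR-7113 lies within the limit that a count of 0 allows. Both libraries had 0 reads for oar-piR-658 and oar-piR-7113, a pair of zeros shared by 34 of the 4996 piRNAs (0.681%). That share is not matched for level and the members were chosen for low underfed levels, so nothing is read from it. Underfed replicate 7 split the more abundant members, with 1 read of oar-piR-12439 against 40 of oar-piR-9006 and 8 of oar-piR-658. Its 1 read of oar-piR-7113 had an interval up to 8.91 CPM, beside a pooled well-fed level of 7.99 CPM. Underfed replicate 2 had reads of all 4, and it was the highest underfed library for oar-piR-12439 and oar-piR-658. Underfed replicates 6 and 8 had reads of oar-piR-12439 only, and 1304 of the 4996 piRNAs (26.1%) were at 0 in both of these shallow libraries.

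Across the 13 deeper libraries, the deviations of log2(CPM + 1) from the mean of each diet correlated most between oar-piR-9006 and oar-piR-658 (Pearson r 0.72) and least between oar-piR-12439 and oar-piR-9006 (r 0.17). For oar-piR-12439 and oar-piR-658 r was 0.62. These are descriptions over libraries, in which members share depth and class total, and zeros weigh heavily in them.

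The spread between males within a diet exceeded counting error for the more abundant members. Over the 6 deeper underfed libraries, the variance of oar-piR-12439 reads was 96.1 times that of Poisson counting, and 51 of the 4996 piRNAs had a higher ratio. In the 7 deeper well-fed libraries the ratio was 22.5, with 250 piRNAs higher. For oar-piR-9006 the ratio was 9.71 with underfeeding and 6.38 without it. The ratio for oar-piR-658 was 3.06 among underfed libraries and 2.82 among well-fed ones, and for oar-piR-7113 it was 1.27 and 1.82. Over all piRNAs the median ratio was 1.97 among underfed libraries and 2.15 among well-fed ones. The ratio grows with the number of reads and is not matched for level here, so it does not rank the members among themselves or against other piRNAs.

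As a description on the log scale, the modelled log2 change of CPM + 1 (underfed minus well-fed) was -3.81 (SE 1.12) for oar-piR-12439, -2.65 (SE 0.82) for oar-piR-9006, -2.81 (SE 0.79) for oar-piR-658 and -2.34 (SE 0.64) for oar-piR-7113. The median over all 4996 piRNAs was -0.23 on the same scale, and each member lay below it, as the choice of members implies. The fit called 1 of 4996 piRNAs DE at a Benjamini-Hochberg FDR under 0.05 by limma (0.0200% of those tested), which was higher in underfed males, and 0 (0%) lower. edgeR, DESeq2 and voom on recovered reads also called 0 piRNAs lower in underfed males. At an unadjusted p under 0.05, limma gave 192 lower piRNAs (3.84% of 4996). These counts are over all piRNAs, and no test is read for the members. They depart from the study, whose edgeR analysis of these males listed oar-piR-12439 and oar-piR-9006 as differentially expressed and lower with underfeeding. The study's list held neither oar-piR-658 nor oar-piR-7113. The main fit here was limma, and the edgeR alternative used a quasi-likelihood F test, whereas the study names edgeR without naming its test. What lies behind the departure was not tested.

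The 6 piRNAs closest to each member in mean well-fed CPM, 3 above and 3 below, were found in at least as many libraries as the member in every case. For oar-piR-658 all 6 had reads in more underfed libraries than its 4, with 6 to 8 libraries. For oar-piR-7113 all 6 had reads in 5 to 8 underfed libraries, beside its 3. For oar-piR-12439 and oar-piR-9006, 5 of 6 had reads in more underfed libraries. The closeness was set on well-fed levels alone and the members were chosen for low underfed levels, so these counts follow from that choice and nothing is read from them.

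The loss of reads from deeper libraries was also counted over all piRNAs, by a rule set after the values were seen. In the 6 deeper underfed libraries, 3532 piRNAs would hold at least 10 reads in at least 1 library at their pooled well-fed rate, and 79 of these (2.24%) had 0 or 1 read in such a library. Of 2716 that would hold at least 10 in 3 or more libraries, 10 (0.368%) had 0 or 1 read in at least 3, and oar-piR-12439 was one of them by the values it was chosen on. oar-piR-9006 had 0 or 1 read in 2 such libraries, as did 21 of 2805 piRNAs (0.749%) in 2 or more. The remaining members would hold fewer reads there than this comparison needs, except oar-piR-658 in replicate 7, where it held 8.

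No other piRNA had the same reads as a member in all 16 libraries. Among the listed piRNAs, those with the next lower and next higher numbers mostly had reads where the members had none. oar-piR-12442, next above oar-piR-12439, averaged 715 ± 202 CPM over well-fed and 917 ± 527 CPM over underfed libraries (SD, n = 8 each), with reads in every library. oar-piR-12425, next below it, had 7, 8 and 8 reads in underfed replicates 3, 4 and 7. oar-piR-657 and oar-piR-659, on either side of oar-piR-658, had reads in all 16 libraries. oar-piR-9002 and oar-piR-9009, beside oar-piR-9006, had 9 or more reads in underfed replicates 3 and 4. Of the neighbours of oar-piR-7113, oar-piR-7104 had reads in all 6 deeper underfed libraries, and oar-piR-7115 was at 0 in replicates 1 and 5 of them. Zeros shared with the member beside them were those of oar-piR-7104 in underfed replicates 6 and 8, of oar-piR-7115 in replicates 5 and 8, and of oar-piR-9009 in replicate 8.

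The piRNA most like oar-piR-12439 within diets, over the 13 deeper libraries, was oar-piR-939 (r 0.92 of the deviations of log2(CPM + 1)), followed by oar-piR-7270 (r 0.90) and oar-piR-13218 (r 0.86). The likeness was one of order and not of size. oar-piR-939 was at 38.4, 33.1 and 36.8 CPM in underfed replicates 3, 4 and 7, where oar-piR-12439 was nearly absent, and its deviations ran from -0.49 to 0.48 on the log2 scale, beside -4.69 to 4.12 for oar-piR-12439.

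oar-piR-9006 was most like oar-piR-2194 (r 0.82), oar-piR-111 (r 0.78) and oar-piR-2016 (r 0.78). oar-piR-2194 was at 0 in well-fed replicates 2 and 3, which were also the lowest well-fed libraries of oar-piR-9006. Its reads in underfed males were limited to replicates 1 and 7, with 14 and 25 reads. The same replicates were the highest underfed libraries of oar-piR-9006. oar-piR-2016 had 1 and 0 reads in underfed replicates 3 and 4 and 63 in replicate 7.

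oar-piR-658 was most like oar-piR-10973 (r 0.91), oar-piR-2642 (r 0.88) and oar-piR-9304 (r 0.87), and all of these were at 0 in underfed replicates 3 and 4. Their diet means differed from its own, since oar-piR-10973 averaged 16.4 ± 7.25 CPM over well-fed and 12.8 ± 14.8 CPM over underfed libraries (SD, n = 8 each), and oar-piR-2642 and oar-piR-9304 had higher means in underfed males. oar-piR-7113 was most like oar-piR-8608 (r 0.88), oar-piR-5720 (r 0.83) and oar-piR-6815 (r 0.83), which had reads in all 6 deeper underfed libraries. With all 16 libraries r was lower for each of these 12 piRNAs, at 0.07 to 0.74. They were picked for the highest r of all listed piRNAs, so zeros shared with a member follow in part from that choice.

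**Figure D4:**
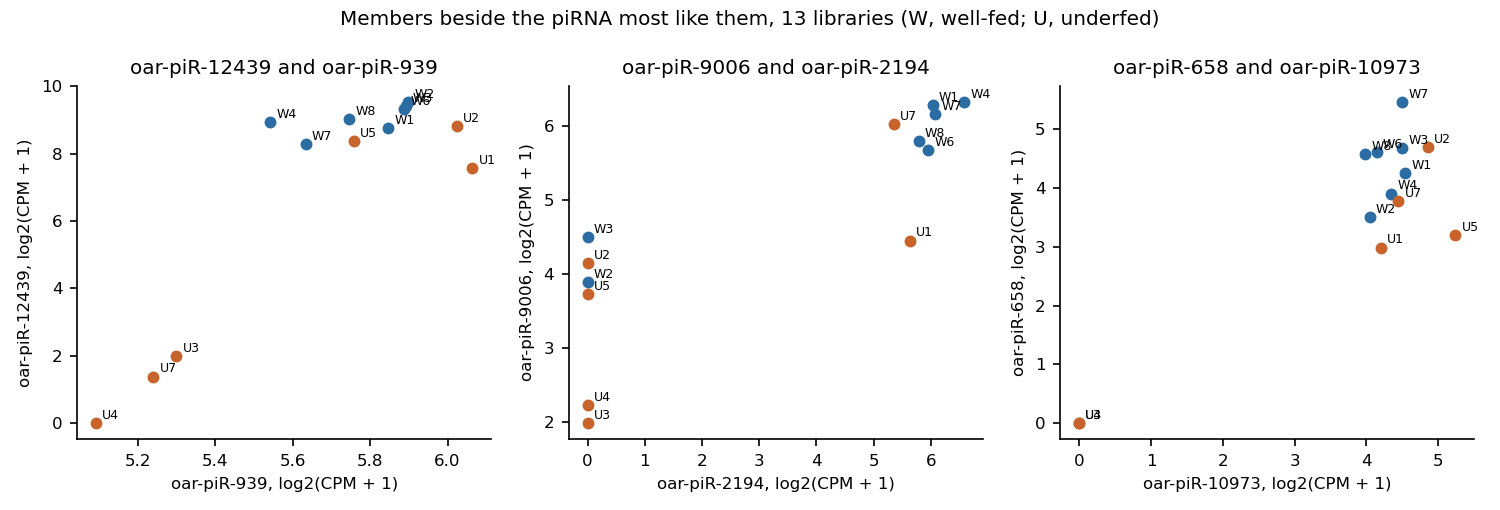
Level of 3 members (y axis, log2(CPM + 1)) against the piRNA most like each within diets (x axis, same scale), one point per library with over 100000 piRNA reads (W, well-fed; U, underfed; number, replicate). U3, U4 and U7 stand apart for oar-piR-12439 over a narrow range of oar-piR-939, W2 and W3 are at 0 of oar-piR-2194, and U3 and U4 coincide at 0 for oar-piR-658 and oar-piR-10973.

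Depth could be related to level within a diet for 6 of 8 combinations of member and diet. It was not tested for oar-piR-12439 and oar-piR-658 in underfed males, whose values fell into separate clusters of log2(CPM + 1). For oar-piR-658 the lower cluster is its 4 zeros, and in replicates 6 and 8 an absence was not detectable. For oar-piR-9006 in underfed males, level rose with piRNA depth (n = 8, Pearson r 0.87, two-sided exact permutation p = 0.0031, adjusted p = 0.018 over the 6 relations; Spearman rho 0.78, exact p = 0.030, adjusted p = 0.18). Without the shallowest libraries, replicates 6 and 8, r was 0.66 (n = 6, exact p = 0.16), so the relation rests on them. Both held 0 reads beside 0.966 and 1.78 at the pooled well-fed rate, so level and detection cannot be told apart there. In well-fed males r was -0.72, 0.14, -0.75 and -0.72 for oar-piR-12439, oar-piR-9006, oar-piR-658 and oar-piR-7113 (n = 8 each, exact permutation p = 0.059, 0.75, 0.049 and 0.032, adjusted p = 0.089, 0.75, 0.089 and 0.089). Spearman rho for these was -0.17, 0.07, -0.50 and -0.38 (exact permutation p = 0.70, 0.88, 0.22 and 0.36, adjusted p = 0.84, 0.88, 0.43 and 0.54). Without the 2 libraries farthest from the median depth r was 0.52, -0.22, 0.10 and -0.34 (n = 6 each). In the 7 deeper well-fed libraries r was -0.13, 0.33, -0.11 and -0.32. In the shallowest, replicate 5, 1 read was worth 39.1 CPM, more than any other well-fed library held of oar-piR-7113. With 2 reads of oar-piR-658 and 1 of oar-piR-7113 there, level and the worth of 1 read cannot be told apart. Nothing is read from their negative r. For oar-piR-7113 in underfed males r was 0.45 and rho 0.63 (n = 8, exact permutation p = 0.23 and 0.11, adjusted p = 0.27 and 0.34), and r was 0.24 without replicates 6 and 8.

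The makeup of the libraries also moved with diet, and its part in the levels of the members was not tested. The ratio of miRNA to piRNA reads was 0.355 to 0.908 in well-fed and 0.517 to 3.13 in underfed libraries. With miRNA and piRNA reads together as the denominator, the CPM of oar-piR-12439 averaged 395 ± 158 over well-fed libraries against 73.4 ± 68.6 over underfed libraries (SD, n = 8 each), a ratio of means of 0.186. That ratio was 0.192 for oar-piR-9006, 0.136 for oar-piR-658 and 0.111 for oar-piR-7113. In whole tissue, fewer germ cells and less of an RNA in each germ cell cannot be told apart.

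Markers of cell types were available among the miRNAs. miR-34b, miR-34c and miR-449a, which are abundant in meiotic and later germ cells, were present in all 16 libraries, and 3 of 3 had a lower mean in underfed males. Their summed level was 47497 to 71079 CPM of miRNA reads in well-fed and 10978 to 58155 CPM in underfed libraries. In underfed replicates 1 to 8 the sum was 44629, 10978, 19336, 21570, 21706, 21441, 19832 and 58155 CPM. It was highest in replicates 1 and 8. The sum for smooth muscle and peritubular cells (miR-143 and miR-145, 0 of 2 lower) was 153985 to 210989 CPM in well-fed and 138660 to 215633 CPM in underfed libraries. For blood cells (miR-142 and miR-486, 2 of 2 lower, with miR-451 not listed) it was 2975 to 8858 and 2295 to 8884 CPM. For epithelium (miR-200a, miR-200b, miR-141 and miR-429, 0 of 4 lower) it was 25.8 to 175 and 23.3 to 180 CPM, with miR-200b at 0 in 3 well-fed and 2 underfed libraries. The vessel marker miR-126 was not listed. The part of these lists in the members' levels was not tested.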

How the data were processed

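Small RNAs from testis were sequenced in 16 males, 8 per diet, with groups and replicate numbers taken from the labels. The authors demultiplexed reads with CASAVA version 1.8, trimmed them, removed matches to other non-coding RNAs, and predicted putative piRNAs from perfect, single-location matches to Oar_v3.1 of reads 26 to 32 nt long. The deposited signal is CPM: the authors divided the reads of a piRNA by all piRNA reads of its library, and treated miRNAs likewise. Every low piRNA value was a whole multiple of the value of 1 read (tolerance 0.1 reads), and reads were recovered by division. A read in a shallow library is worth many CPM, and a mean of CPM weights all libraries equally, so pooled reads are given beside means.

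limma 3.58.1 in R 4.3.3 was fitted to log2(CPM + 1) of all 4996 piRNAs with TMM factors from edgeR 4.0.16, an empirical Bayes trend and diet as the only term. piRNAs needed CPM above 5 in at least 8 libraries. DE required FDR under 0.05 and FC below 0.67 or over 1.5 in the direction of the fitted change. The count tests (edgeR by a quasi-likelihood F test with TMM factors, DESeq2 1.42.0 and voom, on recovered reads) were alternatives. Relations with depth used exact permutation over all pairings. The rule for separate clusters was a gap above 50% of the range of log2(CPM + 1), with 2 or more libraries on either side. That rule was set after the values were seen. Named piRNAs were the members, those with identical reads, those with the next lower and higher number, and the 3 most like each member by Pearson r of within-diet deviations. Other steps ran in Python 3.11.15 with scipy 1.17.1. The limma step was tested on simulated data. Members and lists were chosen with earlier results of these data known.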

Additional observations from a re-analysis of the deposited data

Results flagged for a closer look

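Values of the 4 members, of piRNA depth and of the ratio of miRNA to piRNA reads were examined for 1 library far from the others of its diet, by Dixon's ratio of gap to range against its 95% critical value for 8 libraries. Chance alone flags about 1 in 20 groups, and 2 of the 12 groups had such a library. oar-piR-9006 was at 64.0 CPM in underfed replicate 7, with a ratio of 0.675, beside 20.8 CPM in the next highest underfed library. oar-piR-7113 was at 39.1 CPM in well-fed replicate 5, with a ratio of 0.673, beside 14.0 CPM in the next highest well-fed library. The first value rested on 40 reads and the second on 1 read, with Poisson intervals of 45.7 to 87.1 CPM and 0.991 to 218 CPM.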

How the results depend on the processing

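All 4 members were lower in underfed males in every fit and for each measure of FC tried. That direction is the one they were chosen for in these libraries, so nothing is read from it. The number of DE piRNAs was 1 and depended on the processing. It was 0 with a pseudocount of 0.1 CPM, 2 with a pseudocount of 5 CPM, with robust empirical Bayes, with log2 piRNA total as a covariate, with miRNA and piRNA reads together and with edgeR, 3 with voom, with DESeq2 and in the 13 deeper libraries, and 8 with sample weights (6 higher and 2 lower). With 1 library left out it was 0 to 3, being 0 without well-fed replicates 2, 3, 4 or 8 or underfed replicate 7, 2 without well-fed replicate 5 or underfed replicate 6, and 3 without well-fed replicate 1. With the replicate number as a replicate block it was 0, and same-numbered libraries had a mean correlation of deviations of 0.020 (-0.079 to 0.14), beside 0.007 for other pairs, so the numbers were not taken as pairs. The log2 changes of the members were the same with this block.

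The log2 change of oar-piR-658 was -4.46 and that of oar-piR-7113 -4.33 with a pseudocount of 0.1 CPM, and that of oar-piR-7113 was -0.91 with voom. With edgeR, DESeq2 and voom the change was -1.78, -1.73 and -4.20 for oar-piR-12439, -1.22, -1.35 and -1.60 for oar-piR-9006, and -1.29, -1.37 and -1.50 for oar-piR-658, while edgeR and DESeq2 gave -1.70 and -1.55 for oar-piR-7113. Over all alternatives it ranged from -4.58 to -1.73, -3.56 to -1.22, -4.46 to -1.29 and -4.33 to -0.91 in that order. The median change of all piRNAs was -0.23, and -0.01 with voom. With at least 3 reads required, oar-piR-12439 was present in 4 and oar-piR-658 in 2 underfed libraries, and oar-piR-7113 in 5 well-fed and 0 underfed libraries. The relation with depth was weaker for oar-piR-9006 in underfed males (r 0.66) without the 2 libraries farthest from the median depth, which there are those below 100000 piRNA reads. In well-fed males r for oar-piR-658 was 0.10 without the 2 farthest libraries, a change of sign, and -0.11 in the deeper libraries, and for oar-piR-7113 it was -0.34 and -0.32. Likeness also depended on the shallow libraries, and 1 of the 12 most alike piRNAs, oar-piR-939, was among the 3 most alike over all 16 libraries. Depth limits the 3 shallow libraries, and reads of oar-piR-7113 were few everywhere.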
